A study of Mus musculus with 22 samples.

Results

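The interferon-gamma-induced GTPases are large GTP-binding proteins that cells make when interferons reach them. The 9 genes described here were chosen by name, and each had 1 row in the deposited table of 23420 genes. They fall into 5 guanylate-binding proteins (GBPs), Gbp2, Gbp3, Gbp5, Gbp6 and Gbp7, and 4 immunity-related GTPases (IRGs), Igtp, Irgm1, Irgm2 and Iigp1. They were followed in inguinal white adipose tissue (IWAT), the subcutaneous depot that also holds the mammary gland of a female mouse, with and without a nearby breast tumor, in lean and in obese animals.

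Total RNA depleted of ribosomal RNA was sequenced from 22 libraries of 11 wildtype C57Bl/6 females. In every mouse the left pad had received cells of E0771, a breast cancer line that derives from the same strain, in PBS and Matrigel (a basement membrane gel), and the right pad PBS-Matrigel without cells. Both pads were taken 2 weeks later. Per the study's methods the mice were about 20 weeks old at injection, and the inguinal lymph node, the tumor and the fat directly around it were dissected away. The 4 groups were lean control (5 libraries), lean tumor-associated (5), obese control (6) and obese tumor-associated IWAT (6). Lean mice ate chow and obese mice a high-fat diet (HFD) with 60% of its calories from fat, each for 16 weeks. The control pad belongs to an animal that carries a tumor on its other side, so none of the groups is free of tumor, and the model rests on a single cancer cell line. A mouse keeps its label number below, and a number used in both diets stands for different animals. The libraries held 5759775 to 8598108 counts on genes, and each of the 9 genes had at least 92 counts in every library.

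As background, interferon-gamma is a cytokine of T cells and natural killer (NK) cells that signals through the receptor chains IFNGR1 and IFNGR2 and the kinases JAK1 and JAK2. The transcription factors they activate bind gamma-activated sites (GAS), and interferon regulatory factors (IRFs) bind repeats of GAAA. Type I interferons reach many of the same genes through a complex that holds STAT2 and IRF9, so the GTPases are not specific to interferon-gamma. GBPs and the IRG Iigp1 attach to membranes around intracellular microbes and help break them. Irgm1, Irgm2 and Igtp sit on the cell's own membranes and hold effector IRGs inactive there, and GBPs also promote inflammasome activation. In fat, macrophages, endothelial cells and adipocytes can all respond to interferons.

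The DNA just upstream of the RefSeq starts of the genes is shown because letters of an IRF repeat, with or without a GAS, lie in it. RefSeq promoter windows (build GRCm38.p6, 250 bases before the start) were found for 7 of the 9 genes, Gbp2, Gbp3, Gbp5, Gbp7, Igtp, Irgm1 and Irgm2, and not for Gbp6 and Iigp1. The searches were for TTCNNNGAA (a GAS, the same on both strands) and GAAANNGAA (an IRF repeat, on either strand, so that TTCNNTTTC also counts). For Igtp (chr11:58199436-58199555, + strand), Irgm2 (chr11:58214857-58214976, + strand) and Gbp7 (chr3:142530216-142530335, + strand), the 120 bases before the start are printed 5′ to 3′, with every match in capitals. None of these bases lies in an annotated GENCODE exon. Those of Irgm2 lie inside the span that GENCODE gives this gene (chr11:58199618-58222782), so they are upstream of its RefSeq start only.
Igtp: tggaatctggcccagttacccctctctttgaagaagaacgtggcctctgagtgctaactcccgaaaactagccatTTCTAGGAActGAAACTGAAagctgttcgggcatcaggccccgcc
Irgm2: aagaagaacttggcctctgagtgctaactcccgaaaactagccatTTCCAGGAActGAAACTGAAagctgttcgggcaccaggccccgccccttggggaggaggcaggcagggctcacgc
Gbp7: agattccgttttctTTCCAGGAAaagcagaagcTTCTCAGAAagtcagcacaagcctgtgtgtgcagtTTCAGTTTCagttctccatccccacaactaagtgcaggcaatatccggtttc

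The windows of Igtp and Irgm2 shared an identical run of 55 bases, the longest among the pairs of windows compared. In both, a GAS was followed by an IRF repeat, at bases -45 to -37 and -34 to -26 before the start of Igtp and at -75 to -67 and -64 to -56 before that of Irgm2. Gbp7 had a GAS at -106 to -98, another at -87 to -79 and an IRF repeat at -52 to -44. For the other genes only the 30 bases around the IRF repeats are given. The Gbp5 window lies inside the span that GENCODE gives this gene (chr3:142493978-142522344). Parts of the windows of these other genes are exonic in GENCODE, and the bases printed for Irgm1 and most of those for Gbp2 lie in exons. These are chr11:48871428-48871457 (- strand) for Irgm1, chr3:142559993-142560022 (+ strand) for Gbp3, chr3:142620595-142620624 (+ strand) for Gbp2 and chr3:142496760-142496789 (+ strand) for Gbp5, with the matches in capitals.
Irgm1: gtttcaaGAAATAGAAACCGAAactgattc
Gbp3: acacagtTTCAGTTTCTATTTCccagatcc
Gbp2: ctcttttagtTTCACTTTCactgtcttaag
Gbp5: cttgtgtagtTTCAATTTCagtttagagaa

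Irgm1 and Gbp3 each held 2 overlapping IRF repeats, and Gbp5 also had a GAS at -245 to -237 and another at -52 to -44. An IRF repeat was thus found upstream of 7 of the 7 genes, within 70 bases of the start in 6, and a GAS upstream of 4. Gbp3 has another RefSeq window, which held neither. Of 27025 mouse genes with RefSeq windows of the same length, 8.18% had the IRF repeat in at least 1 window, 8.13% the GAS and 0.881% both, and of all 32851 windows 7.13%, 7.02% and 0.752%. A match of letters is a description of these windows and not evidence of binding in this tissue.

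**Figure D1:**
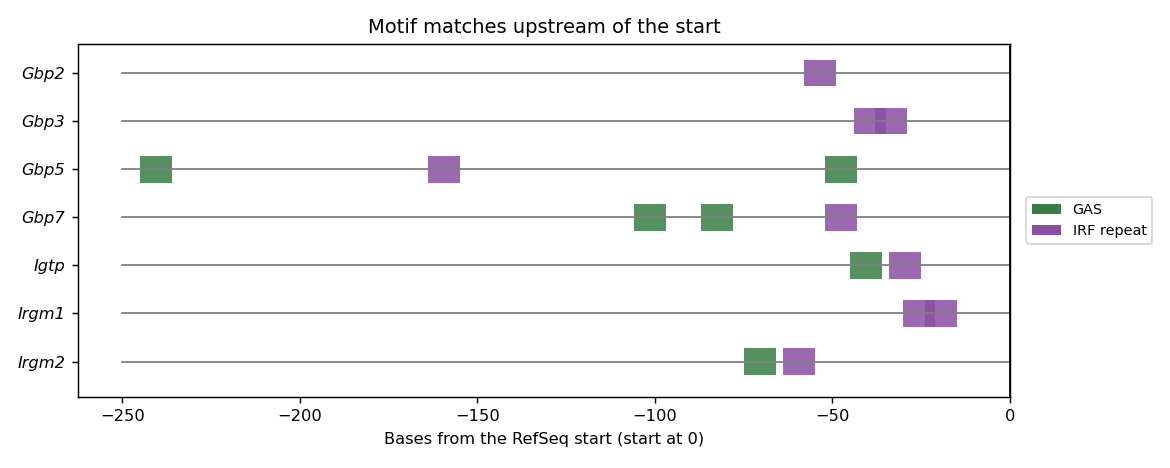
Matches of the GAS and the IRF repeat in the 250 bases before the RefSeq start of 7 genes (x axis, bases from the start; Gbp3 by the first of its windows). In 6 genes an IRF repeat lies within 70 bases of the start, and in Igtp and Irgm2 a GAS directly precedes it.

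Tumor-associated and control IWAT of lean mice were compared first. Gbp3, Gbp7, Irgm1 and Irgm2 were higher in tumor-associated IWAT, by 1.77 to 2.20 times. The other 5 genes had log2 fold changes of 0.51 to 0.88 that did not pass the test (edgeR quasi-likelihood test across 14458 genes, called at a Benjamini-Hochberg adjusted p under 0.05). Called higher were thus 4 of 9 GTPases, against 3.27% of all genes tested, or 4.18% called in either direction. The 9 genes had a median log2 fold change of 0.86, and all genes tested had a median of 0.01. Levels are given as CPM, the counts of a gene relative to the TMM-scaled size of its library (TMM, trimmed mean of M values), and can be compared for a gene between libraries. In bulk tissue a change in the share of cells that make an mRNA and a change in the mRNA per cell cannot be told apart.

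Among the GBPs, Gbp3 was clearest in lean mice. In control IWAT it measured 57.8, 70, 55.7, 67.1 and 83.6 CPM in mice 0, 2, 3, 6 and 9, and in their tumor-associated IWAT 138.1, 212.5, 141.1, 104.8 and 112.0 CPM. All 5 tumor-associated libraries lay above all controls, with mouse 2 the highest. The log2 fold change was 1.08 ± 0.19 (SE, edgeR adjusted p = 0.0021).

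Gbp7, a neighbor of Gbp3 in the GBP cluster on chromosome 3, measured 117.1, 139.8, 93.9, 102.6 and 123.2 CPM in lean control IWAT. In tumor-associated IWAT of the same mice it measured 207.1, 295.5, 202.3, 149.2 and 163.9 CPM. These groups did not overlap either, and the log2 fold change was 0.82 ± 0.20 (SE, edgeR adjusted p = 0.022). This call was lost without any of 4 libraries, with adjusted p values of 0.065 (tumor-associated, mouse 0), 0.12 (tumor-associated, mouse 2), 0.077 (control, mouse 3) and 0.073 (control, mouse 6).

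Gbp2, which acts with other GBPs on vacuoles and bacteria, measured 109.4, 105.7, 79.0, 88.9 and 119.9 CPM in lean control and 151.3, 203.0, 147.0, 95.4 and 119.2 CPM in lean tumor-associated IWAT. Mice 6 and 9 showed nearly no difference between their pads, and the log2 fold change of 0.51 ± 0.26 (SE) did not pass (edgeR adjusted p = 0.36). Gbp5, known for its part in NLRP3 inflammasome assembly, was the least abundant, at 21.9, 27.8, 14.4, 16.2 and 27.3 CPM in control and 37.9, 57.0, 34.5, 24.6 and 26.9 CPM in tumor-associated IWAT. It was higher in the tumor-associated pad of 4 of 5 mice and did not pass the test (log2 fold change 0.75 ± 0.30, SE, edgeR adjusted p = 0.20).

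Gbp6 lies in the other GBP cluster, on chromosome 5. It measured 53.8, 63.5, 47.5, 44.5 and 51.9 CPM in lean control and 86.5, 129.5, 85.7, 61.0 and 68.1 CPM in lean tumor-associated IWAT. It was higher in 5 of 5 mice, yet the groups overlapped slightly and the test was not passed (log2 fold change 0.72 ± 0.25, SE, edgeR adjusted p = 0.12). Its counts are uncertain, because 70.7% of the 50-base stretches of its transcripts also occur in transcripts of other genes, chiefly Gm43302 and Gbp10. The shared percentage was 12.7% for Gbp7, 11.8% for Igtp, 7.83% for Irgm2 and at most 3.75% for the rest.

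Of the IRGs, Irgm1 and Irgm2 passed in lean mice. Irgm1 measured 47.3, 47.8, 36.3, 44 and 57.1 CPM in control and 98.5, 171.9, 103.0, 63.5 and 75.4 CPM in tumor-associated IWAT of mice 0, 2, 3, 6 and 9. It had the highest log2 fold change of the 9, 1.14 ± 0.24 (SE, edgeR adjusted p = 0.0084), with no overlap of the groups. Irgm2 measured 72.7, 68.9, 51.5, 51.4 and 74.9 CPM in control and 137.5, 206.6, 142.4, 87.3 and 99.9 CPM in tumor-associated IWAT, again without overlap (1.08 ± 0.21, SE, edgeR adjusted p = 0.0057). Neither Irgm1 nor Irgm2 passed without both pads of mouse 2 (adjusted p = 0.088 and 0.057) or of mouse 3 (0.066 and 0.056). Of the 9 genes, 4 did not overlap between the lean groups, and 5.33% of all genes tested had every tumor-associated library above every control.

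Igtp, which shares 162 exonic bases with Irgm2 on the same strand of chromosome 11, measured 46.3, 39.9, 28.5, 38.5 and 36.6 CPM in lean control IWAT. Its lean tumor-associated values were 72.7, 113.6, 69.7, 52.1 and 40.9 CPM. It was higher in 5 of 5 tumor-associated pads, by little in mouse 9, and did not pass (0.88 ± 0.31, SE, edgeR adjusted p = 0.14). Fitted to the lean groups alone, Igtp and Gbp6 passed, at adjusted p values of 0.046 and 0.036.

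Iigp1 is the effector IRG that coats vacuoles of the parasite Toxoplasma, and it lies on chromosome 18. It measured 321.7, 218.1, 159.1, 166.7 and 156.0 CPM in lean control and 397.7, 570.9, 414.5, 264.4 and 206.4 CPM in lean tumor-associated IWAT. The control values of mice 0 and 2 lay above the lowest tumor-associated value, that of mouse 9, and Iigp1 did not pass (0.86 ± 0.31, SE, edgeR adjusted p = 0.14) although it was higher in 5 of 5 mice.

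**Figure D2:**
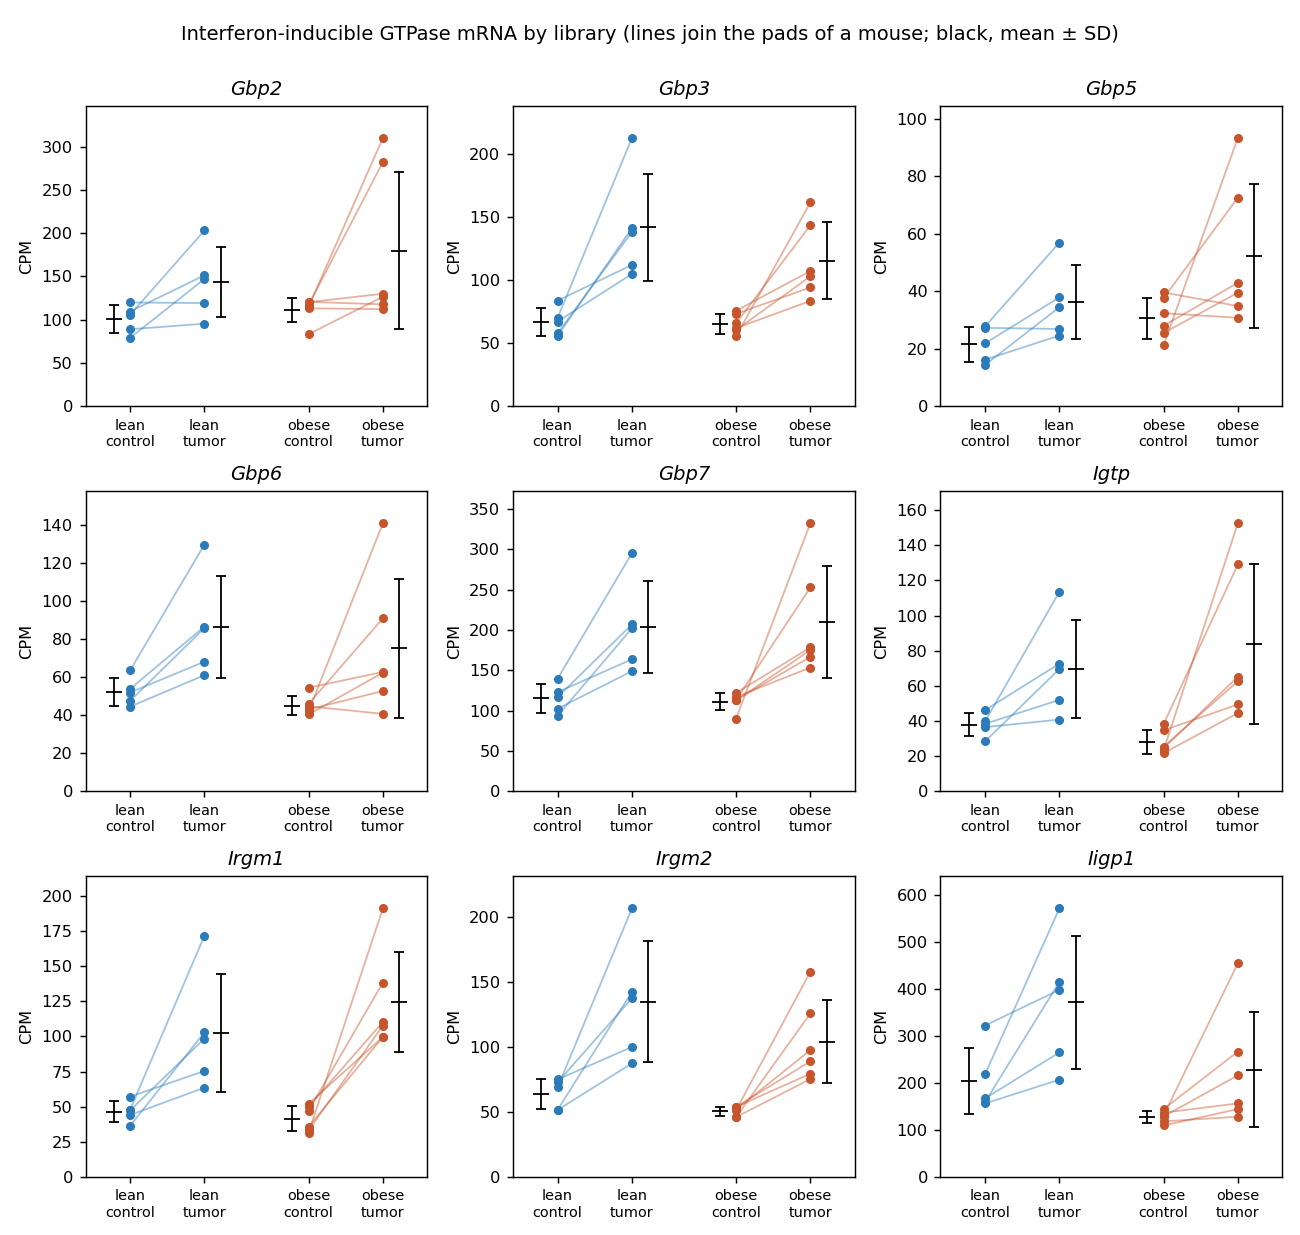
CPM (y axis, linear, from 0) of the 9 GTPases in each library by group; lines join the control and the tumor-associated pad of a mouse, and black marks give mean ± SD (5 lean and 6 obese mice). Lean mouse 2 has the highest lean tumor-associated value of every gene, and obese mice 3 and 4 have the highest obese tumor-associated values of every gene.

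In obese mice 9 of 9 GTPases rose beside the tumor, by 1.61 to 3.00 times. Of all genes tested 26.8% were called higher in this comparison and 54.5% in either direction, so calls were far more frequent than in lean mice. The median log2 fold change of the 9 was 0.83, close to that in lean mice, and that of all genes was -0.02. Groups of 5 of the 9 did not overlap, namely Gbp3, Gbp7, Igtp, Irgm1 and Irgm2, and 9.95% of all genes had every obese tumor-associated library above every control.

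Irgm1 and Igtp showed the highest fold changes. Irgm1 ranged from 31.3 to 52.0 CPM in obese control IWAT (median 41.3) and from 99.6 to 191.3 CPM in tumor-associated IWAT (median 109.1). The lowest tumor-associated library was thus well above the highest control, and the log2 fold change was 1.58 ± 0.22 (SE, edgeR adjusted p = 1.9e-05). Igtp ranged from 21.8 to 38.2 CPM (median 25.0) in control and from 44.6 to 152.6 CPM (median 64.0) in tumor-associated IWAT. Its log2 fold change was 1.58 ± 0.29 (SE, edgeR adjusted p = 0.00023).

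Irgm2 had the narrowest spread in control IWAT, 45.9 to 53.8 CPM (median 51.4), against 75.2 to 157.8 CPM (median 93.1) beside the tumor. The change was 1.05 ± 0.19 on the log2 scale (SE, edgeR adjusted p = 0.00025). Iigp1 ranged from 109.0 to 143.8 CPM (median 129.0) and from 127.8 to 454.0 CPM (median 185.8). It was higher in the tumor-associated pad of 6 of 6 mice although the groups overlapped (0.83 ± 0.28, SE, edgeR adjusted p = 0.017), and the call was lost without the tumor-associated library of mouse 3 (0.51, adjusted p = 0.077).

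Of the GBPs, Gbp7 rose from 90.2 to 122.1 CPM (median 113.4) in control to 153.6 to 332.6 CPM (median 176.9) in tumor-associated IWAT, a log2 fold change of 0.91 ± 0.18 (SE, edgeR adjusted p = 0.00044). Gbp3 rose from 55.3 to 75.6 CPM (median 63.8) to 83.4 to 161.4 CPM (median 105.0), by 0.82 ± 0.17 (SE, edgeR adjusted p = 0.00068). Both were higher in the tumor-associated pad of 6 of 6 mice.

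Gbp6 measured 40.4 to 54.4 CPM (median 43.9) in control and 40.7 to 140.7 CPM (median 62.5) in tumor-associated IWAT, and was higher in 5 of 6 mice (0.74 ± 0.23, SE, edgeR adjusted p = 0.011). Gbp5 measured 21.2 to 39.6 CPM (median 30.2) and 30.8 to 93.4 CPM (median 41.3), and Gbp2 83.2 to 120.6 CPM (median 115.7) and 112.1 to 309.9 CPM (median 128.2). Each was higher in 4 of 6 mice, and the group means were drawn up by mice 3 and 4. Gbp5 passed at 0.77 ± 0.27 (SE, edgeR adjusted p = 0.021) and Gbp2 at 0.69 ± 0.24 (SE, edgeR adjusted p = 0.020). Without the tumor-associated library of mouse 3 neither passed (adjusted p = 0.052 and 0.077), nor did they without that of mouse 4 (0.086 and 0.077). Fitted to the obese groups alone, Gbp2 did not pass (adjusted p = 0.054).

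**Figure D3:**
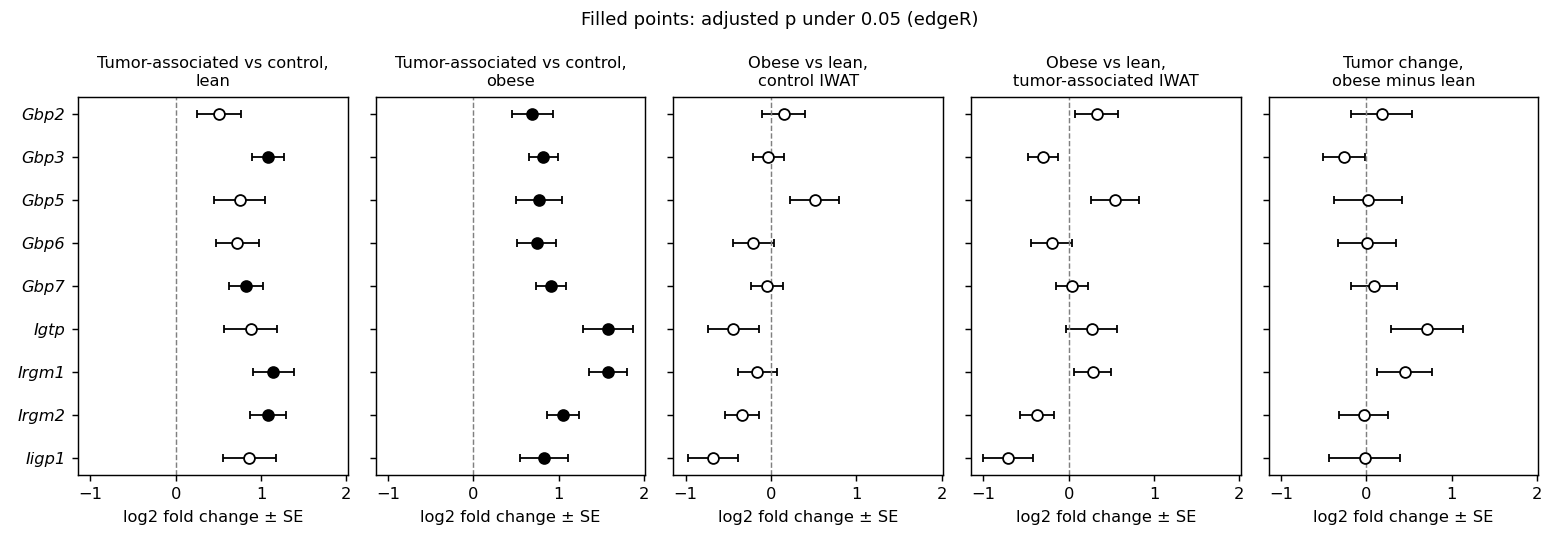
Log2 fold change ± SE (x axis) of the 9 GTPases in the 5 comparisons, with filled points for an edgeR adjusted p under 0.05. Filled are 4 genes in lean and 9 in obese tumor-associated against control IWAT, and none in the other comparisons.

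The size of the change between the pads differed from mouse to mouse. In lean mice the median of the 9 log2 changes was 1.39 in mouse 2 and 1.28 in mouse 3, 0.78 in mouse 0, 0.54 in mouse 6 and 0.40 in mouse 9. In obese mice it was 1.55 in mouse 3 and 1.54 in mouse 4, and 0.36 to 0.63 in the other 4 mice. At least 7 of the 9 genes were higher in the tumor-associated pad of every one of the 11 mice, and all 9 in 7 mice.

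**Figure D4:**
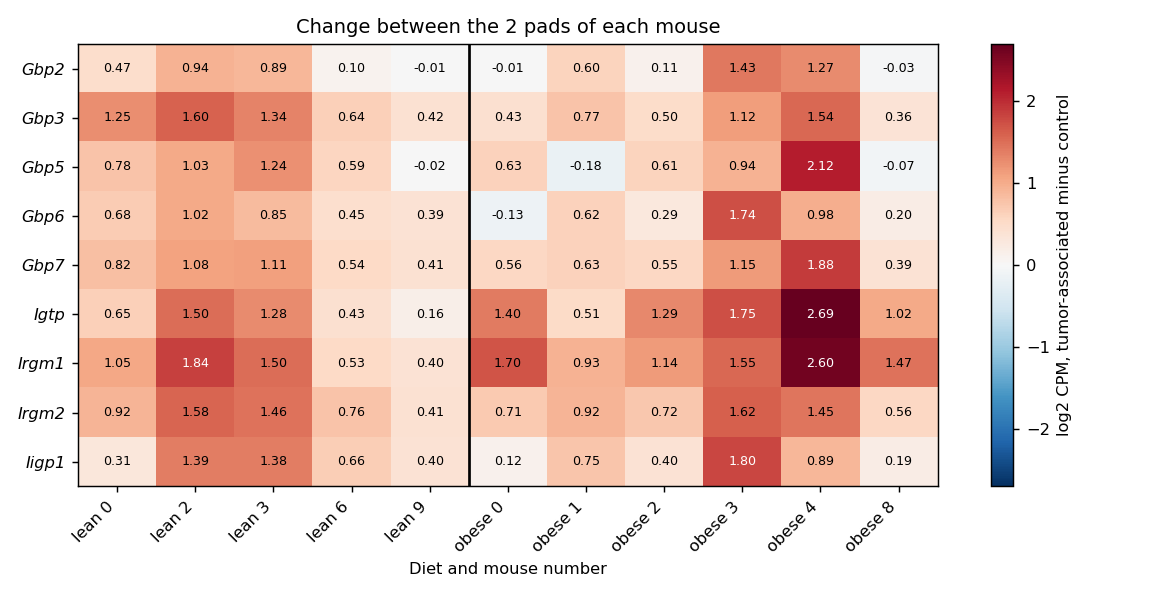
Difference in log2 CPM (prior count 2) between the tumor-associated and the control pad for each gene (rows) and mouse (columns; lean left, obese right of the line). Obese mouse 4 has the highest changes, 2.69 for Igtp and 2.60 for Irgm1, and the lowest is -0.18 for Gbp5 in obese mouse 1.

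Across the 22 libraries, deviations of the 9 genes from their group means ran together. Pearson's r between pairs of genes had a median of 0.825 over 36 pairs, from 0.526 (Irgm1 with Iigp1) to 0.93 (Gbp5 with Gbp7). This is a description, since all points share library depth and tissue makeup. The other genes with the highest r to the mean deviation of the 9 included Tgtp2 (0.881), Gbp4 (0.863), Sectm1a (0.846), Gm12250 (0.829), Psmb10 (0.827), Gbp10 (0.825), Irf1 (0.805), Il18bp (0.793) and Sirpb1b (0.785). Likeness within groups did not mean a like change between them. Gbp4 had log2 fold changes of 0.39 and -0.22 beside the tumor in lean and obese mice (edgeR adjusted p = 0.73 and 0.57), and Irf1 of 0.07 and 0.24.

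Some libraries with high GTPase levels also stood apart in their cell type markers. Obese tumor-associated IWAT of mouse 3 had a summed level of 140 CPM over 5 B cell markers and 118.0 CPM over 14 T and NK cell markers, where the other 5 libraries of the group had 2.03 to 4.91 and 31.6 to 94.4 CPM. That of mouse 4 had the lowest adipocyte (1724 CPM over 8 markers), fibroblast (977.1 CPM over 4) and endothelial sums (249.2 CPM over 5) of all libraries. It also had the lowest macrophage sum of its group (1256 CPM over 7 markers). Its summed level of the proliferation genes Mki67, Top2a and Ccnb1 was the highest (1292 CPM, chosen after values were seen, against 413.7 to 1014 in the rest of its group). That sum was higher beside the tumor in obese mice as a group, with all 6 tumor-associated libraries above the controls (87.8 to 215.2 CPM), and was 129.9 to 437.5 CPM against 37.3 to 201.9 CPM in lean mice. Its part in the GTPase levels was not tested. Obese control IWAT of mice 1 and 3 had B cell sums of 606.9 and 537.8 CPM. Both lay above the other 4 obese controls in Gbp5 and Igtp and below them in Gbp6, and mouse 1 also lay above them in Irgm1 and below them in Gbp2. Without the 3 libraries with B cell sums over 100 CPM, 6 GTPases passed in obese and 4 in lean mice. Gbp2, Gbp6 and Iigp1 no longer passed in obese mice (adjusted p = 0.21, 0.13 and 0.14). The part of these cells in the GTPase levels was not tested.

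Beside the tumor 54.5% of all genes tested were called in obese and 4.18% in lean mice, and 26.8% and 3.27% were called higher. Over whole groups, 6 of 7 macrophage markers were called higher and none lower beside the tumor in obese mice, and 5 of 7 higher in lean mice. Their summed level was 646.0 to 1397 CPM in control and 1442 to 3071 CPM in tumor-associated IWAT of lean mice, and 1039 to 1445 and 1256 to 4129 CPM in obese mice. Adipocyte markers, 8 of 8 detected in every group of this adipose tissue, summed to 8954 to 11829, 5697 to 8906, 12318 to 22202 and 1724 to 10653 CPM in the same order of groups. They were called lower in 8 of 8 cases in obese and in 0 of 8 in lean mice. Within groups, r between the mean deviation of the GTPases and that of the summed markers was 0.45 for T and NK cells, 0.41 for B cells, 0.03 for macrophages and -0.31 for adipocytes over 22 libraries. For the other lists r was 0.37 (dendritic cells), 0.21 (neutrophils), -0.36 (fibroblasts), -0.26 (endothelium), -0.145 (epithelium) and -0.0952 (skeletal muscle). How far these cells account for the GTPase levels was not tested.

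T and NK cell markers, whose cells make interferon-gamma, summed to 17.2 to 68.0, 24.9 to 44.1, 15.8 to 320.9 and 31.6 to 118.0 CPM, with 0 of 14 called in lean and 1 higher and 1 lower of 14 in obese mice. B cell markers summed to 1.68 to 54.8, 2.27 to 11, 2.00 to 606.9 and 2.03 to 140 CPM, with 0 of 5 called in lean and 1 of 5 lower in obese mice. Dendritic cell markers summed to 38.9 to 81.0, 40.2 to 58.4, 66.3 to 113.2 and 52.8 to 137.1 CPM, with 0 of 5 called in lean and 1 of 5 lower in obese mice. Neutrophil markers, of which 1 was tested and not called, did not exceed 10.7 CPM. Endothelial markers (599.1 to 697.8, 623.6 to 776.1, 809.6 to 1105 and 249.2 to 960.8 CPM) had 0 of 5 called in lean and 5 of 5 lower in obese mice. Fibroblast markers (2031 to 3109, 3031 to 4389, 1789 to 2914 and 977.1 to 4123 CPM) had 1 of 4 higher in lean, and 1 higher and 2 lower in obese mice. Epithelial markers (715.7 to 1186, 708.3 to 1382, 282.5 to 716.7 and 162.8 to 369.6 CPM) had 0 of 6 called in lean and 5 of 6 lower in obese mice. Skeletal muscle markers, with 1 of 2 tested called lower in obese mice, reached 1921 CPM in obese control mouse 1 and 184.3 CPM in obese tumor-associated mouse 8. Over all genes tested, 4.18% were called in either direction in lean and 54.5% in obese mice beside the tumor. None of these marker lists had a gene without a count in any group.

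Between obese and lean mice none of the 9 GTPases passed in control IWAT by edgeR or by DESeq2, where 17.1% of all genes were called, and 1 had an unadjusted p under 0.05. That gene was Iigp1, whose 6 obese control libraries (109.0 to 143.8 CPM) all lay below the 5 lean ones (156.0 to 321.7 CPM). Its log2 fold change was -0.68 ± 0.29 (SE, edgeR adjusted p = 0.12), and 5.59% of all genes tested had every obese control library below every lean one. Fitted to the control groups alone, Iigp1 passed (adjusted p = 0.017). The others ranged from -0.44 ± 0.30 for Igtp to 0.51 ± 0.29 for Gbp5 (SE).

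In tumor-associated IWAT, where 47.0% of all genes differed between diets, again 0 of 9 GTPases passed by edgeR or DESeq2, and 1 had an unadjusted p under 0.05. Iigp1 was nearest the threshold (-0.71 ± 0.29, SE, edgeR adjusted p = 0.053). It passed under 4 of the 22 omissions of a library, and most clearly without the obese tumor-associated library of mouse 3, its highest (-1.03, adjusted p = 0.0029). Without that library Irgm2 (-0.53, adjusted p = 0.027) and Gbp6 (-0.48, adjusted p = 0.047) passed as well. Without the lean tumor-associated library of mouse 2, Gbp5 (0.76, adjusted p = 0.038) and Irgm1 (0.55, adjusted p = 0.031) passed, in the other direction. Whether these genes passed thus depended on which library was left out.

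The tumor-associated change in obese minus that in lean mice passed for 0 of 9 GTPases by edgeR or DESeq2, 0 had an unadjusted p under 0.05, and 4.92% of all genes passed by edgeR. Igtp had the highest difference, 0.71 ± 0.42 on the log2 scale (SE, edgeR adjusted p = 0.24), with 2 SE reaching from -0.14 to 1.55. For Irgm2, Iigp1, Gbp5, Gbp6 and Gbp7 the differences lay between -0.03 and 0.09, and the narrowest interval of 2 SE among these 5, that of Gbp7, reached from -0.44 to 0.63. The changes were thus not shown to be alike in lean and obese mice.

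Levels of different genes were compared per kilobase of annotated exon. In lean control IWAT, Gbp2 (40 ± 6.52 CPM per kb, SD, n = 5) and Iigp1 (35.1 ± 12.1) came first with overlapping ranges and were followed, without overlap, by Gbp3 (20.5), Gbp7 (20.5), Igtp (18.8) and Irgm2 (17.3), whose ranges overlapped in turn. Gbp6 (8.77) and Irgm1 (8.00) formed the next pair, and Gbp5 was lowest at 3.24 ± 0.93 CPM per kb, below the range of Irgm1. The place of Gbp6 is uncertain in every group, because 70.7% of its 50-base stretches also occur in transcripts of other genes. In obese control IWAT Gbp2 (44.3 ± 5.63, SD, n = 6) lay above Iigp1 (21.9 ± 2.15) without overlap, and the order of the means was kept. There the ranges of Iigp1 (18.7 to 24.7) and Gbp3 (16.9 to 23.2) overlapped, as did those of Irgm1 (5.39 to 8.95) and Gbp5 (3.19 to 5.97). Beside the tumor the ranges of nearly all neighbors overlapped, from 63.7 ± 24.4 CPM per kb for Iigp1 to 5.45 ± 1.94 for Gbp5 in lean (SD, n = 5), and from 71.4 ± 36.0 for Gbp2 to 7.89 ± 3.76 for Gbp5 in obese mice (SD, n = 6).

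The ligand itself was close to undetected. Summed over a group, Ifng had 3 counts in control and 6 in tumor-associated IWAT of lean mice, and 4 and 17 counts in obese mice, too few to be tested. Its highest counts, 7 and 6, were in obese tumor-associated IWAT of mice 4 and 3, the same libraries that had the highest GTPase levels of their group. Of the 7 ligand, inducer and receptor genes 5 were tested, with 1 higher in lean and 2 higher and 1 lower in obese mice beside the tumor, where 54.5% of all genes were called. Ifngr2 was higher in lean (0.59 ± 0.12, SE, edgeR adjusted p = 0.0071) and obese mice (0.26 ± 0.11, adjusted p = 0.044), and Ifngr1 lower in obese mice (-0.59 ± 0.15, adjusted p = 0.0030). Il18, a cytokine that induces interferon-gamma, was higher in obese mice (0.83 ± 0.32, adjusted p = 0.031), and Il12b had log2 fold changes of 0.60 and 0.37 that did not pass.

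Of 9 signal transducers and transcription factors, 3 were higher in lean and 4 in obese mice. Over all genes tested, 3.27% were called higher in lean and 26.8% in obese mice, and 4.18% and 54.5% in either direction. Stat2, which serves type I interferons, had log2 fold changes of 1.34 ± 0.17 in lean and 1.43 ± 0.16 in obese mice (SE, edgeR adjusted p = 0.00012 and 2.3e-06). Batf2, an interferon-induced transcription factor of macrophages, was higher in obese mice (2.28 ± 0.43, adjusted p = 0.00029). Irf1, an interferon-induced transcription factor that activates GBP genes, did not pass in either (0.07 ± 0.19 and 0.24 ± 0.17, adjusted p = 0.98 and 0.24), nor did Ciita, the activator of MHC class II genes (-0.44 and -0.69). Of the 5 signaling inhibitors 0 were called in lean and 2 in obese mice, against 54.5% of all genes called in obese mice and 26.8% called higher. The called inhibitors were Socs1 (1.19 ± 0.29, SE, edgeR adjusted p = 0.0021) and Socs3 (1.63 ± 0.27, adjusted p = 0.00010), both feedback inhibitors of cytokine receptors, while Ptpn2 (0.22) and Ptpn6 (0.34) did not pass.

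Among 16 tested genes of the other GBPs and IRGs, 6 were higher in lean and 8 in obese mice, with 5 in common and none lower. Of all genes tested 3.27% were called higher in lean and 26.8% in obese mice. Gm12250, which encodes Irgb10, an IRG that opens bacteria to inflammasomes, changed by 1.66 ± 0.38 in lean and 2.04 ± 0.35 in obese mice on the log2 scale (SE, edgeR adjusted p = 0.016 and 0.00013). Gm5431 changed by 1.40 ± 0.27 and 1.61 ± 0.25 (adjusted p = 0.0049 and 4.7e-05), and Gm4841 by 2.27 ± 0.57 in obese mice (adjusted p = 0.0025). The gene listed as Gbp1, a synonym of Gbp2b in RefSeq, did not pass in obese mice (1.64 ± 0.74, adjusted p = 0.067) and was lower in obese than in lean control IWAT (-2.40 ± 0.77, adjusted p = 0.036). Its mean level was low, 6.79 CPM in lean control and 1.27 CPM in obese control IWAT. Gm4841 was low as well, with means of 1.03 CPM in obese control and 5.05 CPM in obese tumor-associated IWAT.

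Of 19 tested other targets of interferon-gamma, 3 were higher and 1 lower in lean, and 10 higher and 1 lower in obese mice. Beside these counts stand 3.27% of all genes called higher in lean and 26.8% in obese mice. In either direction 4.18% and 54.5% of all genes were called. Fcgr1, the high-affinity IgG receptor of macrophages, had log2 fold changes of 2.48 ± 0.34 and 3.31 ± 0.31 (SE, edgeR adjusted p = 0.00029 and 6.5e-07), and Ly6a, a surface protein of stromal and immune cells, of 1.7 ± 0.24 and 1.27 ± 0.22 (adjusted p = 0.00034 and 0.00012). The T cell chemoattractant Cxcl10 was higher in obese mice (2.92 ± 0.50, adjusted p = 0.00013), as was Tap1, a peptide transporter for MHC class I (1.25 ± 0.25, adjusted p = 0.00053). Cxcl9, a chemokine that depends closely on interferon-gamma, was not called in lean mice (-0.18 ± 0.44, adjusted p = 0.97) and was called higher in obese mice (1.15 ± 0.40, adjusted p = 0.019). Its obese tumor-associated values were 21.3 to 167.5 CPM with a median of 34.3 CPM, with mouse 3 the highest and mouse 4 next at 97.4 CPM.

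Genes best known from the type I interferon response had higher median log2 fold changes than the GTPases. Their list also held the receptor genes Ifnar1 and Ifnar2, which were not called in lean or in obese mice. Of 21 tested, 18 were higher in lean and 19 in obese mice and none lower, against 3.27% and 26.8% of all genes called higher. The median log2 fold changes were 1.71 and 2.01 against 0.86 and 0.83 for the GTPases. Oas3, a sensor of double-stranded RNA, changed by 3.06 ± 0.38 and 3.23 ± 0.34 (SE, edgeR adjusted p = 8.6e-05 and 1.4e-06), Isg15, a ubiquitin-like modifier, by 2.27 ± 0.32 and 2.76 ± 0.30 (adjusted p = 0.00034 and 1.7e-06), and Oasl1 and Ifi44 by 2.26 to 2.67. The difference between the lists was not tested.

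Of 18 autophagy and inflammasome partners of the GTPases, 2 were higher in lean, and 7 higher and 5 lower in obese mice, where 54.5% of all genes were called and 26.8% were higher, so that these counts are not set apart from the background. Casp4, which encodes the caspase-11 that senses bacterial lipopolysaccharide after GBPs expose it, was higher in both (0.83 ± 0.17 and 1.00 ± 0.16, SE, edgeR adjusted p = 0.0083 and 5.4e-05). In obese mice the inflammasome sensors Nlrp3 (2.23 ± 0.34, adjusted p = 5.3e-05) and Aim2 (1.30 ± 0.39, adjusted p = 0.0084) were higher, and Map1lc3a, an autophagosome protein, was lower (-1.26 ± 0.24, adjusted p = 0.00028). In none of the 7 pathway lists did a gene pass the edgeR test of the obese minus the lean change, so that a call in 1 diet alone does not show a difference between them.

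**Figure D5:**
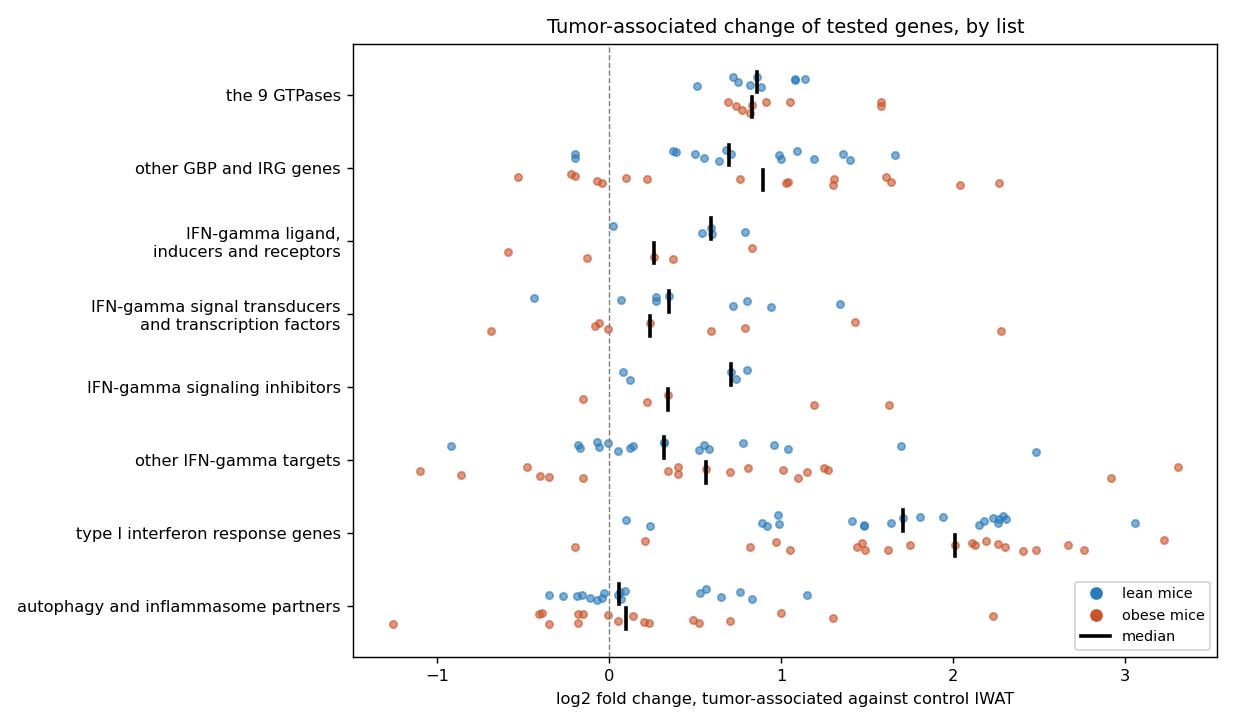
Log2 fold change (x axis) of tumor-associated against control IWAT for each tested gene of a list, in lean (blue) and obese mice (orange), with black bars for medians. All 9 GTPases lie above 0 in both, between 0.51 and 1.58, and the type I interferon response genes have the highest medians, 1.71 and 2.01.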

How the data were processed

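Raw counts per gene symbol were deposited by the authors, who mapped reads to mm10 with STAR (version 2.4.0f per the labels) and counted them with HTSeq; the annotation and strand setting are not given in the sources used here. The 5 HTSeq lines that name no gene were left out of library sizes and held 57.0% to 65.9% of all reads listed. Groups and mouse numbers came from sample titles, and 0 sample columns were left out. Libraries of a group all differed by more than sampling noise (chi-square per degree of freedom at least 5.69), so none was a copy of another in its group. Libraries of different groups were not compared in this way.

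The test was edgeR 4.0.16 under R 4.3.3 (TMM, default filter on low counts by group, quasi-likelihood test, Benjamini-Hochberg adjustment over the 14458 genes tested, threshold 0.05), with all 4 groups in 1 fit and no block. Fold changes are first against second group. P-values rest on libraries as replicates, each from a different mouse within a group. The main fit did not use the pairing of pads. Both pads of a mouse come from the same animal, which pairs them: deviations from group means correlated with a median r of 0.508 in lean (over 0.1 in 5 of 5 mice) and 0.168 in obese mice (4 of 6). The replicate block was an alternative, as were DESeq2 1.42.0, upper-quartile normalization, other filters, fits to the groups compared alone and each library left out. Leaving out the 3 libraries with high B cell markers, or both pads of a mouse, was added after seeing the data. The fits were tested on simulated counts. The 9 genes and the 7 pathway and 10 marker lists were chosen with earlier results of these data known. Named genes were all 9 GTPases, up to 4 genes per pathway list with the largest change in obese tumor-associated IWAT at a mean of at least 1 CPM, and Ifng, Irf1 and Cxcl9; 1 further gene that the rule names is not reported here. Positions and exon lengths are from GENCODE M21 (GRCm38), and promoter windows from RefSeq (GRCm38.p6).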

Additional observations from a re-analysis of the deposited data

Results flagged for a closer look

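In obese control IWAT, Gbp2 was lowest in mouse 1, at 83.2 CPM against 113.1 to 120.6 CPM in the other 5 libraries, a gap of 0.800 of the group's range. Gbp7 was lowest in obese control mouse 4, at 90.2 CPM against 112.8 to 122.1 CPM, a gap of 0.707 of the range. Both exceed Dixon's limit for a group of 6, and chance gives such a flag in about 1 of 20 groups. Of the 36 combinations of a gene and a group that were examined, these 2 were flagged, which is close to that rate.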

How the results depend on the processing

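The count of GTPases called beside the tumor in lean mice was 4 with DESeq2, upper-quartile normalization, no filter, at least 10 counts in every library and the replicate block by mouse, 6 in a fit to the lean groups alone, and 3 to 5 with 1 library left out. It was 1 without both pads of lean mouse 2 and 1 without those of lean mouse 3 (Gbp3 each time). In obese mice it was 9 under the same settings, 8 in a fit to the obese groups alone, 6 to 9 with 1 library or both pads of a mouse left out, and 6 without the 3 libraries high in B cell markers. With the replicate block the pairing of pads changed no GTPase call in the tumor comparisons.

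Between diets in control IWAT the count of 0 was 1 (Iigp1) in a fit to the control groups alone, and 0 to 0 with 1 library left out. In tumor-associated IWAT the count of 0 was 1 (Iigp1) with upper-quartile normalization and 1 (Iigp1) with at least 10 counts in every library, and 0 to 3 with 1 library left out. There it was 2 without both pads of obese mouse 3, 2 without those of lean mouse 2, 2 without those of lean mouse 6, 1 without those of lean mouse 9 and 2 without the 3 libraries high in B cell markers. The difference between the diets in the tumor-associated change gave 0 under every alternative run. No GTPase reversed direction while called. The cause of these shifts was not tested.

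Counts over all genes moved as well, in some comparisons far more than in others. In lean mice the 605 calls became 918 with DESeq2, 1437 with the lean groups alone and 183 to 952 with 1 library left out. The 711 genes whose tumor-associated change differed between diets became 2329 with DESeq2, 18 without a filter, 1170 without the 3 libraries and 1 to 3568 with 1 library left out, and the 2468 diet calls in control IWAT fell as low as 1606. Without both pads of a mouse, the first count fell as low as 119, the second ranged from 0 to 3437 and the third fell as low as 1590. The 7882 calls beside the tumor in obese mice moved less, between 6057 and 8403 over all alternatives. The 6802 diet calls in tumor-associated IWAT likewise stayed between 5337 and 7522.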
